A study of Mus musculus with 6 samples.

Results

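The genes of sterol and fatty acid synthesis that the SREBP transcription factors control were followed in sorted mouse spleen cells that had or had not taken up human stromal cells. The genes were taken by name from a list of 32: the enzymes from acetyl-CoA to cholesterol, the SREBP factors and their regulators, and the enzymes that make and desaturate fatty acids. The symbol column of the deposited count table of 21847 genes held 31 of them, and all 31 passed the filter on low counts. The other name, Tm7sf2, a sterol reductase, was absent from that column. The row with its Ensembl identifier carries the symbol Vps51, a neighbouring gene, in the deposited table and is described apart.

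The 6 libraries came from splenocytes depleted of T cells and cultured for 3 days on human cord tissue mesenchymal stromal cells (MSCs) that carried Qtracker, a fluorescent quantum dot label. Cells labelled as macrophages were sorted into Qtracker positive cells, marked as having engulfed MSCs, and Qtracker negative cells, marked as not. Each group held 3 libraries, described as paired, and cells of both groups shared the culture with MSCs in medium with fetal bovine serum. The gate was CD11b positive with Ly6G negative in one label and Ly6C negative in another. Strain, sex and age of the mice are not stated in the labels. The replicates are called biological, without saying if each is a separate animal, and the spread behind each p-value is only that among 6 libraries and could be technical.

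SREBP factors are made as membrane proteins of the endoplasmic reticulum. When membrane sterol is low, the escort protein Scap carries them to the Golgi, where proteases release the active part; when sterol is high, Insig proteins hold Scap back. The product of Srebf2 mainly drives the cholesterol pathway and that of Srebf1 mainly drives fatty acid synthesis. In macrophages, sterol taken up with engulfed cells can enter through the lysosome and lower SREBP processing, and it can also raise oxysterols that activate the liver X receptors.

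The libraries held 33943090 to 55506993 estimated counts. Levels are given as CPM, a gene's counts for every 1000000 counts of its library, after correction for composition, and a gene is called higher or lower at an adjusted p under 0.05 by edgeR's quasi-likelihood test with the pair as a block. Qtracker negative replicate 1 stood apart in its cell markers. The summed level of 12 macrophage markers was 1070 CPM there, against 13400 and 13270 CPM in the other negative libraries and 28810 to 39810 CPM in positive libraries. Timd4 of that list was at 0 in at least 1 library. Lyz2 held most of the sum in each library, with 712, 11500 and 11430 CPM in negative replicates 1, 2 and 3. It was at 19350, 24560 and 27080 CPM in positive libraries and was not called (adjusted p = 0.166). The 15 neutrophil markers summed to 3866 CPM in negative replicate 1, to 75240 and 75440 CPM in negative replicates 2 and 3, and to 1519 to 2379 CPM in positive libraries, with Ly6g at 0 in at least 1 library and at 25.9 and 29.2 CPM in negative replicates 2 and 3. The 12 B cell markers summed to 18430, 7841 and 7892 CPM in negative and to 760.3 to 839.5 CPM in positive libraries, none of them at 0. The 15 proliferation genes summed to 872.3, 1960 and 1856 CPM in negative and to 425.5 to 543.7 CPM in positive libraries, none at 0. The T cell, NK cell, eosinophil, basophil and mast cell, dendritic cell, monocyte and mesenchymal lists are given with the marker values at the end. In bulk RNA, fewer cells of a type and less RNA per cell cannot be told apart.

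Of the 31 genes, 9 were lower and 1 was higher in Qtracker positive cells. That was 29.0% lower, beside 16.3% of the 14605 genes tested, and 3.23% higher, beside 18.5%. The genes that fell were the cholesterol regulator Srebf2, the sterol carrier Stard4, the mevalonate pathway enzymes Acat2, Pmvk and Fdps, the fatty acid synthase Fasn and the desaturases Scd1, Scd2 and Fads2. The gene that rose was the desaturase Fads1. The median log2 change of the 31 genes was -1.25, and that of all tested genes was -0.01.

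The calls depended on which replicates were kept. Without replicate 1, 28 were lower and 1 was higher (35.8% and 37.1% of 14932 genes), and without Qtracker negative replicate 1 alone 26 were lower and 1 was higher (25.5% and 26.7% of 14997 genes). Replicates 2 and 3 of a group were close. Their median absolute log2 difference over all tested genes was 0.0674 in the negative and 0.107 in the positive group. An adjusted p without replicate 1 rests on that small spread, here and for the single genes below. Without replicate 2 (0.917% of genes higher and 1.18% lower) or without replicate 3 (0.0% in both directions), edgeR called 0 of the 31. In each of these settings 9 genes were lower and 1 higher at an unadjusted p under 0.05, beside 15.1% and 14.5% of all tested genes lower. In either direction, 4453 of 14831 and 4209 of 14803 tested genes were under that p. DESeq2 then called 7 lower and 1 higher, beside 12% and 11.8% of genes lower. Of all 14831 and 14803 genes, 1513 and 1477 were higher by DESeq2. By limma-voom 2 were lower and 0 higher, beside 6.02% and 4.18% of genes lower and 732 and 548 genes higher.

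The calls also moved with the tool and the scaling, each read against all tested genes. DESeq2 called 18 of the 31 lower (25.1% of genes) and 1 higher (23.4%), and limma-voom 14 lower (19.5%) and 1 higher (20.6%). Without the replicate block 17 were lower (20.9%) and 0 higher (19.9%). Library totals alone gave 18 lower (22.7%) and 1 higher (10.8%). DESeq2 size factors gave 9 lower (17%) and 1 higher (17.4%), no filter gave 9 lower (9.2%) and 1 higher (11.4%), and at least 50 counts in 3 libraries gave 9 lower (17.8%) and 1 higher (20.0%). The deposited normalized values gave 10 lower (17.3%) and 1 higher (17.2%).

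**Figure D1:**
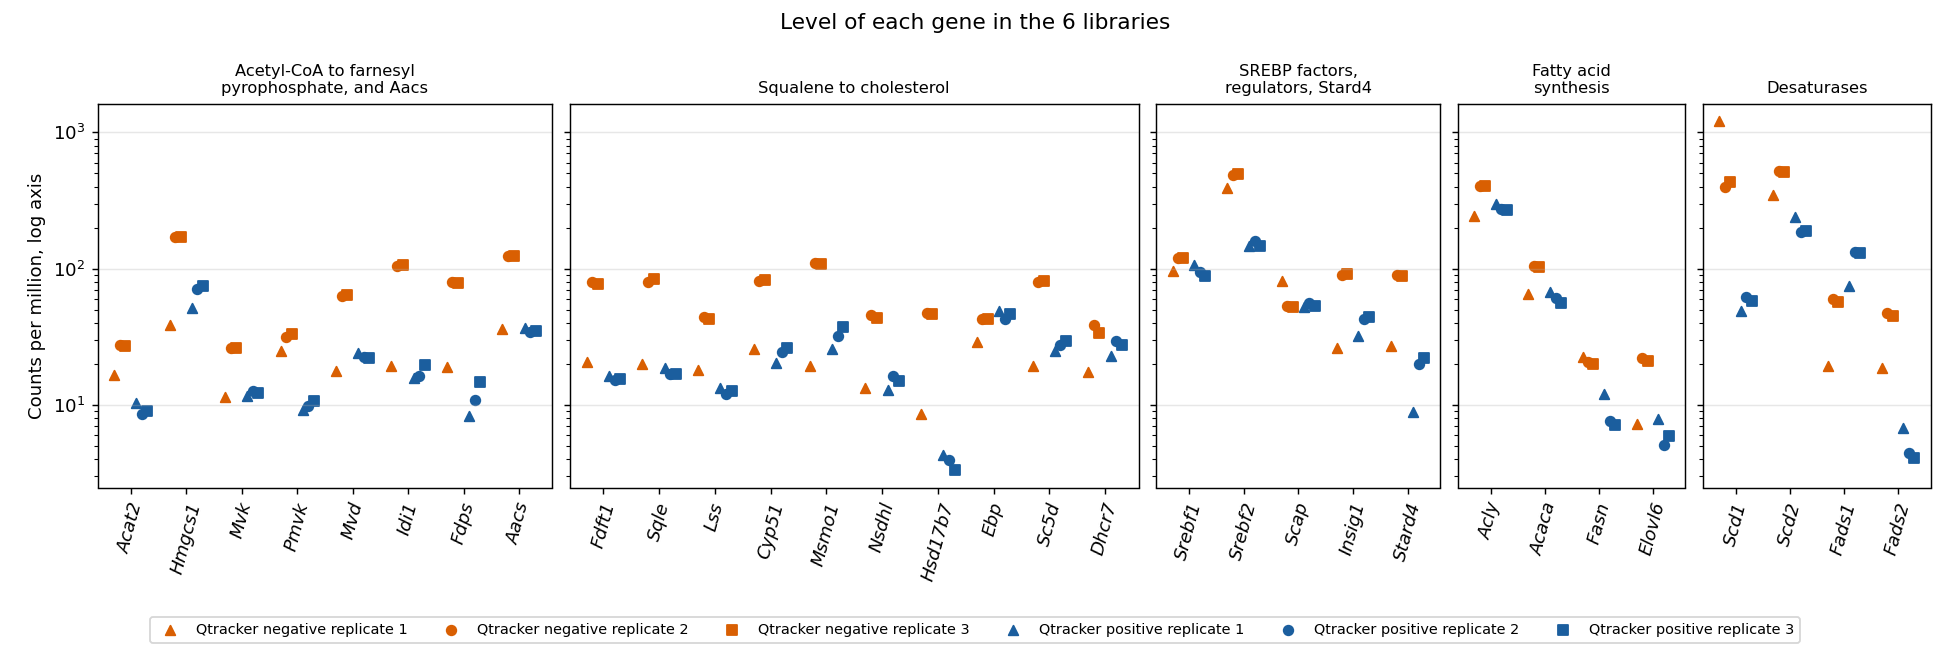
CPM (log axis) of each of the 31 genes in the 6 libraries, grouped by role; orange marks are Qtracker negative, blue marks Qtracker positive, and the shape gives the replicate. For most sterol enzymes the negative triangles (replicate 1) lie near the blue marks and the negative circles and squares lie above them.

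Among the regulators, Srebf2 and Stard4 fell and the other 3 did not pass the test. Srebf2, on chromosome 15 from 82147181 to 82205379 (mm10), encodes the factor that drives cholesterol synthesis. It stood at 388, 486 and 491 CPM in negative replicates 1, 2 and 3 and at 145, 160 and 147 CPM in positive replicates 1, 2 and 3. All positive libraries were below all negative libraries, and the 3 pairs changed by -1.42, -1.60 and -1.74 on the log2 scale. The fitted log2 change was -1.59 ± 0.14 (SE, n = 3 pairs, adjusted p = 0.0104). Its close relative Srebf1, on chromosome 11 from 60199089 to 60222581, stood at 96.3, 119 and 120.5 CPM in negative and at 105, 93.8 and 88.7 CPM in positive libraries, so the groups overlapped. Its fitted change was -0.22 ± 0.17 (adjusted p = 0.348). Without replicate 1, where 35.8% of all tested genes were lower, it was -0.38 (adjusted p = 0.000732).

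Per kilobase of merged annotated exons, the level of Srebf2 was 63.3 CPM in negative and 21 CPM in positive libraries, while that of Srebf1 was 19.9 and 17 CPM. In positive libraries the 2 factors thus lay close together, although their ranges (20.2 to 22.3 and 15.7 to 18.7 CPM per kilobase) did not overlap.

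Stard4 encodes a soluble carrier of cholesterol and lies on chromosome 18 from 33199355 to 33213862. It stood at 27.1, 89.1 and 88.4 CPM in negative and at 8.91, 19.9 and 22.1 CPM in positive libraries. Replicate 1 was the lowest library of both groups for this gene, and the pairs changed by a similar amount (-1.60, -2.16 and -2.0). Its fitted change was -1.92 ± 0.16 (adjusted p = 0.00977). Scap, the escort of the SREBP factors, was at 81.5, 52.8 and 52.3 CPM in negative and at 52.3, 55.8 and 53.2 CPM in positive libraries. Its fitted change was -0.18 ± 0.20 (adjusted p = 0.509), and without replicate 1 it was 0.06. Insig1, the retention protein and itself an SREBP target, was at 26.3, 89.7 and 91.5 CPM in negative and at 31.9, 42.6 and 44.2 CPM in positive libraries. The log2 difference was 0.28 in pair 1 and -1.07 and -1.05 in pairs 2 and 3. Its fitted change of -0.62 ± 0.35 did not pass (adjusted p = 0.227), and without replicate 1 it was -1.05 (adjusted p = 1.38e-05). Without replicates 2 and 3 in turn, the adjusted p of Srebf2 was 0.0854 and 0.0979, and that of Stard4 was 0.06 and 0.0719.

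From acetyl-CoA to farnesyl pyrophosphate, 3 of 7 enzymes fell, beside 16.3% of all tested genes. Pmvk, which phosphorylates mevalonate phosphate and lies on chromosome 3 from 89454541 to 89469013, was at 25.0, 31.5 and 32.9 CPM in negative and at 9.17, 9.78 and 10.6 CPM in positive libraries. Its negative replicate 1 was close to the other negative libraries, and the pairs changed by -1.44, -1.68 and -1.63. Its fitted change was -1.59 ± 0.12 (adjusted p = 0.00903). Fdps, the synthase of farnesyl pyrophosphate, on chromosome 3 from 89093588 to 89101959, was at 18.9, 79.9 and 78.2 CPM in negative and at 8.30, 10.8 and 14.8 CPM in positive libraries. Both groups were lowest in replicate 1, and the groups did not overlap. The fitted change was -2.17 ± 0.40 (adjusted p = 0.0293). Acat2, the cytosolic thiolase that joins 2 acetyl-CoA molecules, on chromosome 17 from 12942890 to 12960747, was at 16.6, 27.5 and 27.1 CPM in negative and at 10.3, 8.62 and 8.94 CPM in positive libraries. For Acat2 the fitted change was -1.32 ± 0.26 (adjusted p = 0.0331).

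The other 4 enzymes of that stretch did not pass and differed between pair 1 and the other pairs. Hmgcs1, the synthase that commits acetoacetyl-CoA to the pathway, was at 38.8, 171 and 171 CPM in negative and at 51.5, 71.1 and 74.4 CPM in positive libraries. It was higher in the positive library of pair 1 (0.41) and lower in those of pairs 2 and 3 (-1.27 and -1.20), with a fitted change of -0.70 ± 0.42 (adjusted p = 0.259). Idi1, the isomerase of the isoprene units, was at 19.2, 105 and 106 CPM in negative and at 15.6, 16.3 and 19.6 CPM in positive libraries. Its groups overlapped through negative replicate 1 alone, and its fitted change was -1.84 ± 0.60 (adjusted p = 0.0835). Mvd, the decarboxylase, changed by 0.44, -1.50 and -1.54 in the 3 pairs, and Mvk, the mevalonate kinase, by 0.02, -1.04 and -1.09. Aacs, which activates acetoacetate for lipid synthesis, changed by 0.01, -1.86 and -1.84. Without replicate 1 these 5 genes were all lower, by -1.06 (Mvk) to -2.55 (Idi1) with adjusted p of 2.1e-06 (Aacs) to 6.65e-05 (Mvk). In that setting 35.8% of all tested genes were lower. Without replicate 2 or 3 the adjusted p of Pmvk, Fdps and Acat2 lay between 0.0709 and 0.161.

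From squalene to cholesterol, 0 of 10 enzymes passed edgeR's adjusted test, with 4 at an unadjusted p under 0.05, all lower (24.5% of all tested genes were lower at that p). DESeq2 called 6 of the 10 lower (25.1% of all tested genes) and limma-voom 4 (19.5%). Sqle, the squalene epoxidase and a rate-limiting step of the late pathway, was at 19.9, 80.3 and 83.6 CPM in negative and at 18.7, 16.9 and 16.7 CPM in positive libraries. All positive libraries lay below all negative ones, but in pair 1 by only -0.09, against -2.24 and -2.32 in pairs 2 and 3. The fitted change was -1.59 ± 0.58 (adjusted p = 0.104). Hsd17b7, which reduces the keto group of sterol intermediates, had the steepest fitted change of the 10. It was at 8.58, 46.9 and 46.2 CPM in negative and at 4.31, 3.91 and 3.32 CPM in positive libraries, with a change of -2.85 ± 0.74 (adjusted p = 0.054). The groups did not overlap for that gene.

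Fdft1, the squalene synthase, Lss, the lanosterol synthase, and Cyp51, the lanosterol demethylase, had fitted changes of -1.71, -1.36 and -1.25 with adjusted p of 0.0749, 0.0558 and 0.0642. Msmo1, the methyl sterol oxidase, was at 19.2, 109 and 108 CPM in negative and at 25.7, 31.9 and 37.1 CPM in positive libraries, and Sc5d, the sterol desaturase, also had its lowest level in negative replicate 1 and its highest in negative replicates 2 and 3. Nsdhl, the decarboxylating dehydrogenase, changed by -0.07, -1.48 and -1.55 in the 3 pairs. Dhcr7, the last reductase of the pathway, was at 17.4, 38.7 and 33.6 CPM in negative and at 22.9, 29.6 and 27.6 CPM in positive libraries, with a fitted change of -0.09 ± 0.21 (adjusted p = 0.744). Ebp, the sterol isomerase, went the other way in value: it was at 28.9, 42.75 and 42.73 CPM in negative and at 48.4, 42.97 and 46.5 CPM in positive libraries. All positive libraries lay above all negative ones, by 0.01 in pair 2, and the fitted change of 0.29 ± 0.19 did not pass (adjusted p = 0.302). It was -0.06 when libraries were scaled by their totals alone. Without replicate 1, 9 of the 10 enzymes were lower, from -0.32 (Dhcr7) to -3.68 (Hsd17b7), and Ebp was not called (0.08, adjusted p = 0.291). In that setting 35.8% of all tested genes were lower. The row with the identifier of Tm7sf2 was at 7.75, 16.3 and 15 CPM in negative and at 11.3, 12.5 and 12.6 CPM in positive libraries, with a change of -0.04 ± 0.25 (adjusted p = 0.915).

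**Figure D2:**
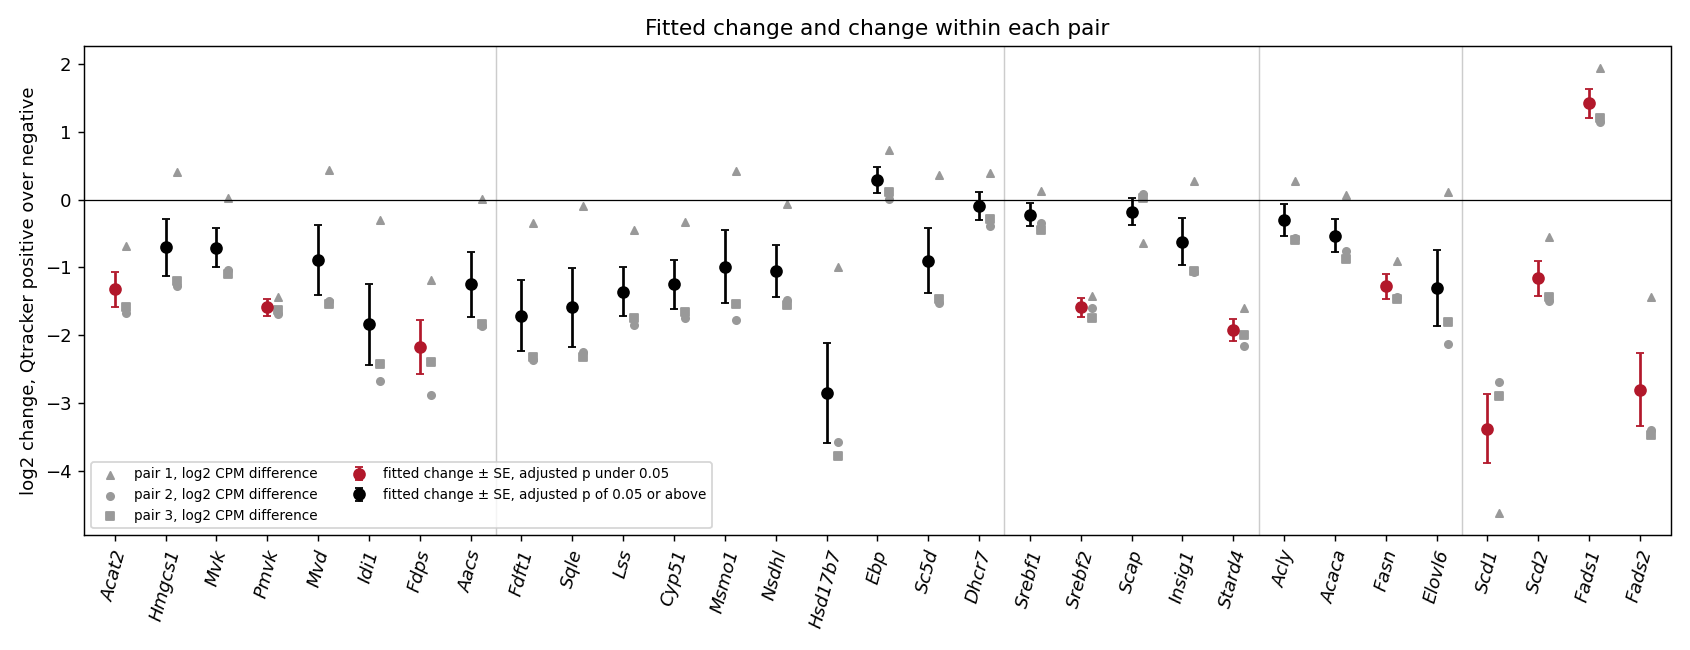
Fitted log2 change of each gene, Qtracker positive over negative, with its standard error (red where the adjusted p was under 0.05, black otherwise), and the log2 CPM difference within each of the 3 pairs in grey; vertical lines part the roles in the order used for levels. For Pmvk, Srebf2 and Stard4 the 3 pairs lie close together, while for Sqle pair 1 is at -0.09 and pairs 2 and 3 are at -2.24 and -2.32.

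The promoters of these genes were searched because many of the enzymes moved together across libraries. RefSeq promoters (GRCm38.p6, 250 bases before to 50 after a start site) were found for 24 of the 31 genes. Only 5 of the 10 called genes were among the 24. Of those 5, an NF-Y box (CCAAT) was found in 3 and an Sp1 box (GGGCGG) in 3. A sterol regulatory element written as TCACNCCAC, on either strand, was in 1 of the 24 (4.17%), Hmgcs1, and in 1.44% of 27025 genes. Its first and its last 8 letters were then searched, a choice made after that count was seen. TCACNCCA was in 3 (12.5%, against 4.97% of genes) and CACNCCAC in 3 (12.5%, against 7.12%), both forms overlapping the longer one. The NF-Y box CCAAT, the site of a common partner of SREBP, was in 18 (75%, against 41.1%), and the Sp1 box GGGCGG in 19 (79.2%, against 38.2%). The E-box CACGTG was in 5 (20.8%, against 8.09%). A match is a run of letters, not a measured site, and no test was made. The 5 promoters with a match to a form of the element are shown for the 200 bases before the start site, 5′ to 3′ on the gene's strand. Capitals mark the element forms and NF-Y boxes of either strand.
Hmgcs1, chr13:119690151-119690350, plus strand: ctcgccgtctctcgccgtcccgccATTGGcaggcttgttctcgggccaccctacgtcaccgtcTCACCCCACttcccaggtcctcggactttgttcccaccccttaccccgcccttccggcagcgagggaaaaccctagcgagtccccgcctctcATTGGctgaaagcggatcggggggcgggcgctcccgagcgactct
Srebf2, chr15:82147069-82147268, plus strand: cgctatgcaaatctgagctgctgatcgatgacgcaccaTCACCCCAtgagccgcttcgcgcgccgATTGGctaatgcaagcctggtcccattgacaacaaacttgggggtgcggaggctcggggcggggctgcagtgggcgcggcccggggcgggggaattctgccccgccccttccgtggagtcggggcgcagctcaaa
Msmo1, chr8:64733579-64733778, minus strand: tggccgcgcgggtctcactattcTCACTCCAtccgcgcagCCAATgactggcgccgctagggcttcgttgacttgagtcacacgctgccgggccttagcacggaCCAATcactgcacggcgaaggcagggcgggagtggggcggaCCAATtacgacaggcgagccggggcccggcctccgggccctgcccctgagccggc
Acat2, chr17:12960726-12960925, minus strand: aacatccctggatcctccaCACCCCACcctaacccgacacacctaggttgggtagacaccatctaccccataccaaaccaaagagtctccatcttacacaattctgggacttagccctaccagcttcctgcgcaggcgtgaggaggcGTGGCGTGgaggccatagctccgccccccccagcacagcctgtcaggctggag
Insig1, chr5:28071212-28071411, plus strand: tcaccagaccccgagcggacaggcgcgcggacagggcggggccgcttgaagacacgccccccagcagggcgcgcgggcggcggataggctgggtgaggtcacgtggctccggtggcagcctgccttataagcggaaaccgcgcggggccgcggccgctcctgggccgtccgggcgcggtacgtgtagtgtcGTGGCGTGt
The element of Hmgcs1 began at -137, counted in bases from the start site, between NF-Y boxes that began at -176 and -45. The form in Srebf2 began at -162 and its NF-Y box at -135. Msmo1 had its form at -177 and NF-Y boxes at -160, -96 and -55, while the printed windows of Acat2 and Insig1 held no NF-Y box. Of these 5 genes Srebf2 and Acat2 fell, and Hmgcs1, Msmo1 and Insig1 were not called.

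In fatty acid synthesis, Fasn fell and the other 3 enzymes did not pass. Fasn, the synthase that builds palmitate, on chromosome 11 from 120805846 to 120824547, was at 22.6, 20.7 and 19.8 CPM in negative and at 11.9, 7.58 and 7.10 CPM in positive libraries. Its 3 negative libraries were close together. The fitted change was -1.28 ± 0.18 (adjusted p = 0.0184). Acly, which supplies cytosolic acetyl-CoA from citrate, was at 245, 404 and 403 CPM in negative and at 297, 273 and 268 CPM in positive libraries, with a change of -0.30 ± 0.24 (adjusted p = 0.387). Acaca, the carboxylase that makes malonyl-CoA, changed by 0.07, -0.76 and -0.88 in the 3 pairs (fitted -0.53 ± 0.24, adjusted p = 0.162). Elovl6, the elongase of palmitate, was at 7.18, 22.2 and 20.8 CPM in negative and at 7.82, 5.05 and 5.92 CPM in positive libraries (fitted -1.30 ± 0.56, adjusted p = 0.143). Without replicate 1 all 4 were lower (35.8% of all tested genes), by -0.57 (Acly) to -1.96 (Elovl6). Without replicate 2 or 3 the adjusted p of Fasn was 0.114 and 0.125.

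All 4 desaturases passed the test, 3 lower and 1 higher (16.3% and 18.5% of all tested genes). Scd1, which puts the first double bond into stearate and palmitate, lies on chromosome 19 from 44394455 to 44407879. It was at 1203, 400.0 and 431 CPM in negative and at 49.0, 62.0 and 58.2 CPM in positive libraries. Negative replicate 1 was the highest library, the reverse of the order for the sterol enzymes. The 3 pairs changed by -4.62, -2.69 and -2.89, and the fitted change was -3.38 ± 0.51 (adjusted p = 0.0208). Scd2, its neighbour from 44293674 to 44306864, was at 349.8, 520.1 and 508 CPM in negative and at 239, 185 and 189 CPM in positive libraries. Its change was -1.16 ± 0.26 (adjusted p = 0.0407), with no overlap between groups.

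Fads1 and Fads2, which put further double bonds into polyunsaturated fatty acids and lie side by side on chromosome 19, went in opposite directions. Fads1, from 10182888 to 10196877, was at 19.4, 60.1 and 56.5 CPM in negative and at 74.4, 132 and 130 CPM in positive libraries. Every positive library was above every negative one. Its fitted change was 1.42 ± 0.22 (adjusted p = 0.0208), and 0.0666 without the replicate block. Fads2, from 10062765 to 10101746, was at 18.5, 47.4 and 45.1 CPM in negative and at 6.79, 4.44 and 4.04 CPM in positive libraries. For Fads2 the fitted change was -2.80 ± 0.54 (adjusted p = 0.0314). Per kilobase of exon, Fads1 went from 9.42 to 23.3 CPM and Fads2 from 11.2 to 1.54 CPM. Without replicate 2 or 3 the adjusted p of the 4 desaturases lay between 0.0632 and 0.216.

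Levels per kilobase of exon ranked differently in the groups. In negative libraries the highest means were Scd1 (139 CPM per kilobase), Scd2 (84.1), Acly (66.4) and Srebf2 (63.3). Over the negative libraries the range of Scd2 (64.0 to 95.2) overlapped those of Scd1 (81.8 to 246), Acly (46.4 to 76.6) and Srebf2 (54.0 to 68.4). Those of Acly and Srebf2 also overlapped. Scd1 was above Scd2 only in negative replicate 1, and Acly was below Srebf2 only there. In positive libraries they were Acly (52.9), Scd2 (37.3), Fads1 (23.3) and Srebf2 (21), and Scd1 was at 11.5. In the positive group Acly (50.8 to 56.2) and Scd2 (33.8 to 43.7) did not overlap over libraries, and Fads1 (15.5 to 27.5) overlapped with Srebf2 (20.2 to 22.3). Hsd17b7 (0.753), Fasn (0.811) and Elovl6 (0.974) had the lowest means in positive libraries.

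Within the negative group, replicate 1 set the spread of most of these genes. Of the 17 enzymes from acetyl-CoA to cholesterol (Aacs not counted), all 17 were lower in negative replicate 1 than the mean of negative replicates 2 and 3, with a median log2 difference of -1.84. Among the 14605 tested genes, 7157 were lower there. By more than 1 log2 unit, 82.4% of the 17 enzymes were lower, and 16.7% of all tested genes were. Msmo1, Idi1 and Hsd17b7 were 5.66, 5.48 and 5.43 times higher in the mean of negative replicates 2 and 3 than in negative replicate 1, while Pmvk was 1.29 times and Srebf2 1.26 times higher. Scap, Fasn and Scd1 were the 3 genes of the 31 that were higher in negative replicate 1. In the positive group the same 17 enzymes had a median difference of -0.15 between replicate 1 and the others. By more than 1 log2 unit, 0 of them were lower, beside 9.22% of all tested genes. The 17 enzymes summed to 338.9 CPM in negative replicate 1 and to 338.2, 372.5 and 392.2 CPM in positive libraries, but to 1153 and 1145 CPM in negative replicates 2 and 3. Replicates 2 and 3 of a group were close, with a median absolute log2 difference over the 31 genes of 0.0233 in the negative and 0.0913 in the positive group.

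**Figure D3:**
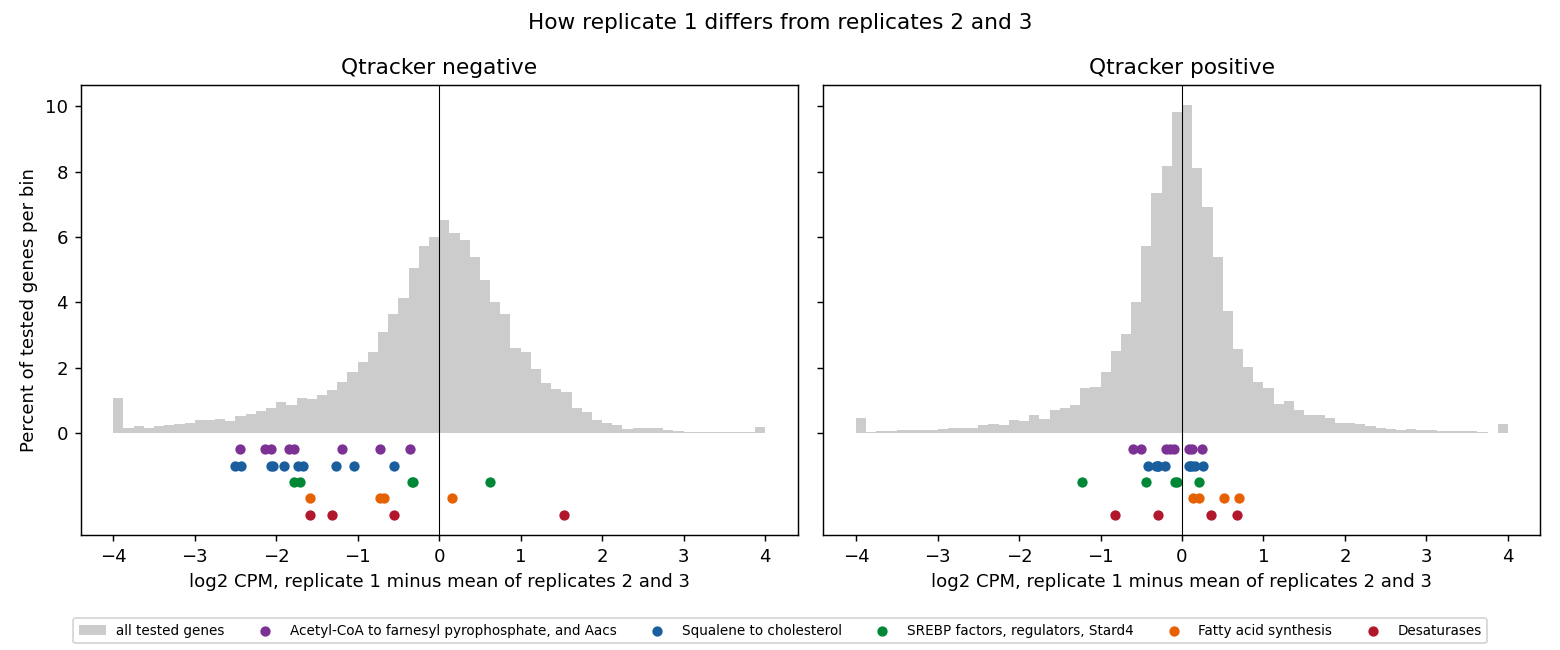
Log2 CPM of replicate 1 minus the mean of replicates 2 and 3 within the Qtracker negative (left) and positive (right) libraries: grey bars give the percent of all 14605 tested genes per bin, with differences beyond 4 in the outermost bins, and dots give the 31 genes by role at arbitrary heights below the bars. The sterol enzymes have a median of -1.84 on the left and -0.15 on the right.

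By pair, the median log2 change of the 31 genes was -0.09, -1.60 and -1.55 in pairs 1, 2 and 3, and that of all tested genes was -0.01, 0.01 and 0.00. In pair 1, 17 of the 31 were lower in the positive library, and in pairs 2 and 3, 28 were. Among the 14605 tested genes, 7346, 7243 and 7244 were lower in pairs 1, 2 and 3. In all 3 pairs 16 were lower (51.6%, beside 36.0% of tested genes), and for 13 all positive libraries lay below all negative ones (29.4% of tested genes). For Ebp and Fads1 all positive libraries lay above (30.0% of tested genes). A fall of more than 1 log2 unit in both pairs 2 and 3 was seen in 24 of the 31 (77.4%, beside 18.9% of tested genes).

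Other genes of the pathway were read from lists chosen with earlier results of these data known. Over all tested genes 18.5% rose and 16.3% fell. Of 11 tested genes of SREBP transport and sterol sensing, 2 rose and 0 fell, with a median log2 change of 0.05. Erlin2, an endoplasmic reticulum membrane protein, rose from 29.7 ± 4.12 to 63.4 ± 8.42 CPM (SD, n = 3), by 1.10 ± 0.11 (adjusted p = 0.0111). Mbtps2, one of the proteases that release SREBP, rose from 20.4 ± 2.98 to 40.2 ± 8.35 CPM, by 0.97 ± 0.12 (adjusted p = 0.0155). Of 8 promoter partners of SREBP, 1 rose and 2 fell. Nfyb, a subunit of NF-Y, fell from 36.2 ± 7.08 to 16.5 ± 0.226 CPM (-1.11 ± 0.16, adjusted p = 0.02), and Usf2, which binds E-boxes, rose by 0.58 ± 0.13 (adjusted p = 0.043). The other one that fell, Sp1, was named after its values were seen (-0.64 ± 0.15, adjusted p = 0.0466). The Usf2 call was lost with library totals alone (0.23), with no filter and on the deposited normalized values, and the Mbtps2 call with library totals alone and on those normalized values. The calls of these 4 genes were also lost without replicate 2 (adjusted p of 0.0894 to 0.258) or 3 (0.11 to 0.277).

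In the late sterol and isoprenoid branches, 1 of 14 genes rose and 0 fell (18.5% and 16.3% of all tested genes). Nus1, a subunit of the dolichol synthase, rose from 41.4 ± 5.82 to 133 ± 12.2 CPM (1.69 ± 0.12, adjusted p = 0.00842). Of 24 tested genes of fatty acid synthesis and elongation outside the 31, 6 rose and 2 fell, with a median of 0.57. Hsd17b12, a reductase of the elongation cycle, rose from 43.0 ± 13.6 to 153 ± 9.72 CPM (1.89 ± 0.25, adjusted p = 0.0169). Me1, the malic enzyme that supplies NADPH, was at 0.178 ± 0.0212 CPM in negative and 1.29 ± 0.394 CPM in positive libraries (2.80 ± 0.39, adjusted p = 0.0182). Those that fell, named after their values were seen, were Acss2, which makes acetyl-CoA from acetate (-1.18 ± 0.22, adjusted p = 0.0303), and Scd4, a further stearoyl-CoA desaturase (-1.87 ± 0.40, adjusted p = 0.0368). Scd4 was low, at 1.307, 0.627 and 0.3867 CPM in negative and at 0.3965, 0.1222 and 0.1268 CPM in positive libraries. Its groups overlapped. Without replicate 2 or 3 the calls of Nus1, Hsd17b12 and Me1 were lost (adjusted p of 0.0595 to 0.143).

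Of 11 genes of lysosomal sterol release and esterification, 8 rose and 0 fell (18.5% and 16.3% of all tested genes). Their median log2 change was 1.83. Lipa, the lysosomal acid lipase that frees cholesterol from its esters, rose from 109 ± 48.3 to 1310 ± 460 CPM (3.64 ± 0.19, adjusted p = 0.0063). Npc1, which moves cholesterol out of the lysosome, rose from 78.1 ± 14.6 to 728 ± 89.2 CPM (3.23 ± 0.25, adjusted p = 0.00909). Of 8 genes of the liver X receptors and their targets, 3 rose and 0 fell. Nr1h3 rose by 3.94 ± 0.20 (adjusted p = 0.0063) and its partner Rxra by 3.84 ± 0.23 (adjusted p = 0.00683). The cholesterol exporter Abca1, named after its values were seen, rose by 2.45 ± 0.28 (adjusted p = 0.0142). Without replicate 2 the adjusted p of Lipa, Npc1, Nr1h3 and Rxra was 0.0466 to 0.0533, and without replicate 3 it was 0.0581 to 0.0647.

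The levels of cell markers also differed between libraries, and not all lists followed the order of the synthesis genes. Negative replicates 2 and 3, where the 17 sterol enzymes summed to 1153 and 1145 CPM, also had the highest summed neutrophil, monocyte and proliferation genes. The mesenchymal sum and the eosinophil, basophil and mast cell sum were highest there too. Negative replicate 1, at 338.9 CPM, had the lowest macrophage sum and the highest B cell, T cell, NK cell and dendritic cell sums. Its sterol sum was close to those of positive libraries (338.2 to 392.2 CPM). Its macrophage sum (1070 against 28810 to 39810 CPM) and B cell sum (18430 against 760.3 to 839.5 CPM) were far from theirs. Of all tested genes, 16.3% were lower and 18.5% higher in positive libraries. Of the marker genes tested, the number lower in positive libraries was 11 of 15 for neutrophils, 10 of 12 for B cells, 10 of 10 for T cells and 7 of 8 for NK cells. It was 7 of 10 for eosinophils, basophils and mast cells, 4 of 6 for dendritic cells, 5 of 9 for monocytes and 8 of 15 for proliferation, and 8 of 11 macrophage markers were higher. Of the eosinophil, basophil and mast cell list 2 genes were higher, Prg2 (2.68, adjusted p = 0.00656) and Epx (3.82, adjusted p = 0.00977), and of the monocyte list 1 was, Treml4 (1.82, adjusted p = 0.0364); the 3 were named after their values were seen. The T cell sum was 49.53 to 220.0 CPM in negative and 6.212 to 16.34 CPM in positive libraries, with Lat at 0 in at least 1 library. The NK cell sum was 17.96 to 93.28 and 1.648 to 6.68 CPM, with Gzma, Klrb1c, Klre1, Ncr1 and Prf1 at 0 in at least 1 library. The monocyte sum was 1291 to 5781 and 1404 to 2034 CPM, with none at 0. The dendritic sum was 412.3 to 992.8 and 434 to 461.5 CPM, with Cd209a at 0 in at least 1 library. Irf8, named after its values were seen, held most of that sum in positive libraries (442.5, 433.7 and 418.7 CPM). It was not called (0.28 ± 0.28, adjusted p = 0.461), and the 4 lower dendritic genes were Flt3, Ccr7, Zbtb46 and Siglech. The eosinophil, basophil and mast cell sum was 114.1 to 476.2 and 82.71 to 314.2 CPM, with Fcer1a, Il5ra and Ms4a2 at 0 in at least 1 library. The mesenchymal sum was 7.36 to 31.89 and 3.912 to 4.318 CPM, with 1 of 5 tested genes lower and Col3a1, Col6a1, Lum, Postn and Sparc at 0 in at least 1 library. The part of these markers in the changes of the synthesis genes was not tested.

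**Figure D4:**
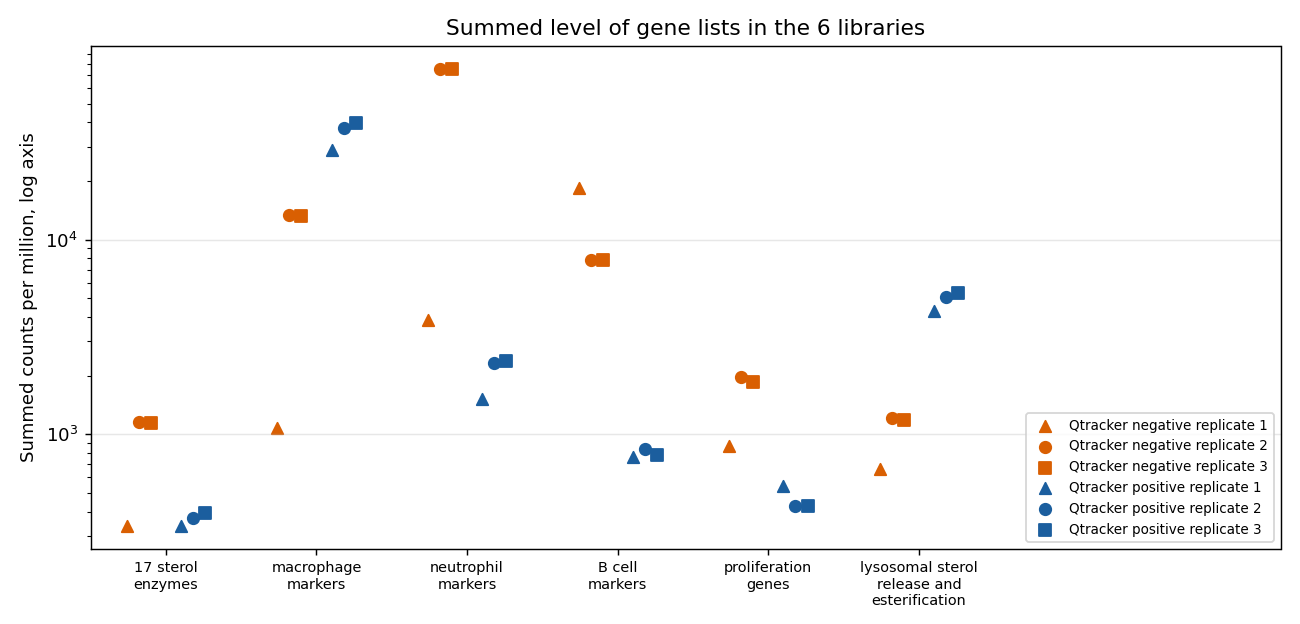
Summed CPM (log axis) of 17 sterol enzymes, of marker lists for macrophages, neutrophils, B cells and proliferation, and of the genes of lysosomal sterol release and esterification, in each of the 6 libraries. Negative replicate 1 (orange triangle) lies with the positive libraries for sterol enzymes, near 338.9 CPM, and far below the other negative libraries for neutrophil markers (3866 against 75240 and 75440 CPM).

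Transcript sequence shared with other genes limits the counts of some members. At least 10% of the 31-base words of their transcripts also occur on the same strand of another gene's transcripts for 5 of the 31: Acat2 (43.8%, shared with Acat3), Acaca (33.4%), Fdps (27.9%), Idi1 (18.8%) and Fdft1 (14.3%). On the opposite strand this held for 4, Fdft1 (17.6%, from the cathepsin gene Ctsb), Acat2 (13.2%), Hmgcs1 (13.1%) and Scap (11.3%). No label says if strand was used in counting, so reads of these genes and their partners may not be told apart. Scd1 (8.14%) and Scd2 (6.81%) shared less.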

How the data were processed

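RNA-seq libraries of 3 Qtracker positive and 3 Qtracker negative samples were used. The authors deposited expected counts per gene as whole numbers, made with FastQC, Salmon and mm10 per the submitters' processing notes, with no versions; no label names the annotation. The authors' deposited normalized table is a signal, whose ratio to the count varies between genes as well as libraries, by a formula no label states; it served only as an alternative.

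Low counts were removed with filterByExpr (at least 10, total at least 15), libraries were scaled by TMM and tested with edgeR 4.0.16 in R 4.3.3 with the replicate as a block, and p-values were adjusted over all genes (Benjamini-Hochberg). CPM were taken on the TMM-scaled totals, and log2 CPM added a prior count of 2. Standard errors come from the F statistic. Coordinates and exon lengths are from GENCODE M21. The pairing follows the series' design text. Deviations of same-numbered libraries correlated at 0.198, 0.077 and 0.158 across genes. Negative replicate 2 with positive replicate 3 gave 0.147, and negative replicate 3 with positive replicate 2 gave 0.116. Replicate 1 of either group with replicates 2 and 3 of the other gave -0.185 to -0.114. The data alone thus did not establish the pairing, least of all for replicates 2 and 3. The pipeline was tested on simulated data in which no library stood apart as Qtracker negative replicate 1 did, so that case was not covered. All members were described, with those called in full, and the 2 lowest p-values of each related list were named, except 1 gene that is not reported here. The members and lists were chosen with earlier results of these data known. Alternatives were other scalings and filters, DESeq2 1.42.0, limma-voom (limma 3.58.1), the deposited normalized values (log2, pseudocount 1), no block and replicates left out or summed.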

Additional observations from a re-analysis of the deposited data

How the results depend on the processing

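The count of 9 lower genes among the 31 was the same with DESeq2 size factors, no filter and the stricter filter (50 counts in 3 libraries), and was 10 on the deposited normalized values. It was 18 with library totals alone, 18 by DESeq2, 14 by limma-voom and 17 with no replicate block, where 0 genes were higher. The 10 called genes were called in each of these settings, except Fads1 with no replicate block. With replicates left out in turn, the count of lower genes ranged from 0 to 28, that of higher genes from 0 to 1 and all calls from 0 to 10890. Without Qtracker negative replicate 1, chosen after seeing the data, 26 genes were lower and 7831 of all genes were called. In a setting also chosen after seeing the data, replicates 2 and 3 were summed into a single library in each group. There edgeR called 0 of the 31 lower, 0 higher and 0 of all genes. Below an unadjusted p of 0.05, 9 were lower and 1 higher (14.6% of all genes lower, and 4488 of 15570 in either direction). DESeq2 called 7 lower and 1 higher (12.2% of genes lower and 1582 of 15570 higher). By limma-voom 2 were lower (4.75% of genes) and 0 higher (665 of 15570). The median change of the 31 genes stayed between -0.91 and -1.63 over all settings. Library totals alone moved the median of all tested genes to -0.357 from -0.01, and 32.2% of all calls were then higher instead of 53.2%; Ebp turned to -0.06. Dhcr7 ranged from -0.42 to 0.06 with libraries left out (0.06 and 0.00 without replicates 2 and 3) and was 0.05 with these summed; Scap ranged from -0.3 to 0.06 (0.06 without replicate 1 and 0.05 without Qtracker negative replicate 1). The cause was not tested. Over the 31 genes and 13 settings, 298 results kept direction and call, 68 gained a call, 31 lost it and 6 changed sign.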
